A study of Mus musculus with 4 samples.

Results

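The ligands and receptors of axon guidance were followed in RNA sequencing of mouse ovaries with and without deletion of Hdac3 in granulosa cells (GCs), the somatic cells that surround and nourish the oocyte. Members were defined by gene name and comprised the semaphorins of classes 3 to 7, the plexins, Nrp1 and Nrp2, the Slits, the Robos, the ephrins and Eph receptors, netrins 1 to 5 and the Unc5 receptors. Of 28611 rows in the expression table, 69 carried such a name, of which 67 were ligand or receptor genes and 2 (Plxna4os1 and Plxna4os2) were antisense RNA genes at the Plxna4 locus. At least 0.5 RPKM (reads divided by exon length and by the library total) in at least 2 libraries was found for 52 members, all of them ligand or receptor genes, out of 15528 such genes in all.

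The Hdac3cKO females carry floxed alleles of Hdac3 and the Foxl2-CreERT2 transgene, a Cre recombinase that tamoxifen switches on in cells with Foxl2 activity, foremost GCs. Their controls were Hdac3flox/flox females without the transgene, so that effects of Cre and of the deletion cannot be told apart. Both genotypes were on the C57BL/6 background, received 20 mg of tamoxifen per kg of body weight once at 18 days of age and were sampled at 24 days of age, with 2 libraries (2 mice) per genotype. Hdac3 encodes a histone deacetylase that works in nuclear corepressor complexes, and the comparison asks which transcripts differ once it is deleted in GCs. The labels call the material ovarian granulosa cells, whereas the protocol describes whole frozen ovaries.

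Axon guidance proteins were first known for steering growing nerve fibres, which they attract or repel at contact or over a distance. Semaphorins signal through plexins, with neuropilins as co-receptors for the secreted class 3, Slits signal through Robos, netrins through Dcc, neogenin and Unc5 receptors, and membrane-bound ephrins through Eph receptor tyrosine kinases on neighbouring cells. The same molecules act outside the nervous system, in blood vessel patterning, in cell adhesion and migration and in the sorting of epithelial cells, and many of them are made in the ovary.

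The 4 libraries held 17621129 to 18452073 reads, and log2 values correlated across genes at r = 0.975 within each genotype and at 0.963 to 0.966 between genotypes, with genes not being independent replicates. Hdac3 itself had 19.4 and 19.2 RPKM in Hdac3cKO, against 24.4 and 24.4 RPKM in Hdac3flox/flox (log2 fold change -0.34 ± 0.0325 (SE), adjusted p = 0.00935). This value sums reads of every exon, deleted or not. The paper describes the deletion as incomplete, with follicles that kept HDAC3 in Hdac3cKO ovaries. Differences between the genotypes, and their absence, thus refer to a partial loss of Hdac3. Markers of granulosa cells were abundant, with 10 of 10 tested, and summed to 9192 and 8783 RPKM in Hdac3cKO, against 8029 and 7609 RPKM in Hdac3flox/flox. Markers of other ovarian cells were present as well, and those of oocytes (10 of 10 tested) summed to 227 and 204 RPKM in Hdac3cKO, against 187 and 190.0 RPKM in Hdac3flox/flox. In such bulk samples, fewer cells of a type and less RNA per cell cannot be told apart.

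Of the 52 members tested, 18 differed between the genotypes at an adjusted p under 0.05 by limma, 5 of them higher and 13 lower in Hdac3cKO, and 34 did not pass. Over all genes tested, 18.7% passed, with 7.68% higher and 11.0% lower. The members passed in 34.6% of cases, with a median log2 fold change of -0.10, against a median of -0.04 over all genes. At least a 2-fold difference with an adjusted p under 0.05 was found for Sema5b and Epha4 alone, 2 of the 52, against 1.96% of all genes. The fold change is that of Hdac3cKO over Hdac3flox/flox on the log2(RPKM + 0.1) scale, which understates the differences of low genes. By the ratio of mean RPKM (0.49), Sema4g was also more than 2-fold lower in Hdac3cKO, beside a log2 fold change of -0.98 with the 0.1 added. The values of the 2 genotypes did not overlap for 41 of 52 members, against 64.5% of all genes. Among ligands, 2 were higher and 8 lower of 27 tested. Among receptors, 3 were higher and 5 lower of 25 tested. Over all genes the share that passed was larger at higher levels. At 0.5 to 2 RPKM 1 of 13 members passed (all genes, 6.00%), at 2 to 5 RPKM 7 of 16 (all genes, 13.9%), at 5 to 20 RPKM 4 of 12 (all genes, 21.7%) and at 20 RPKM or more 6 of 11 (all genes, 33.8%). The 52 members summed to 733 and 737 RPKM in Hdac3cKO, against 741 and 724 RPKM in Hdac3flox/flox, so that the total overlapped between the genotypes while single members moved in opposite directions. Sema7a alone held 230.3 and 238 RPKM of the Hdac3cKO totals and 193 and 185 RPKM of the Hdac3flox/flox totals. The overlap of the totals thus leans on this 1 gene and says little of the other members. With 2 libraries per genotype the calls rested on all 4 libraries. When 1 library was left out in turn, the log2 fold change of Sema5a ran between -0.86 and -0.80. All 18 kept their direction, but this was fixed beforehand, since the genotypes overlapped for none of them.

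**Figure D1:**
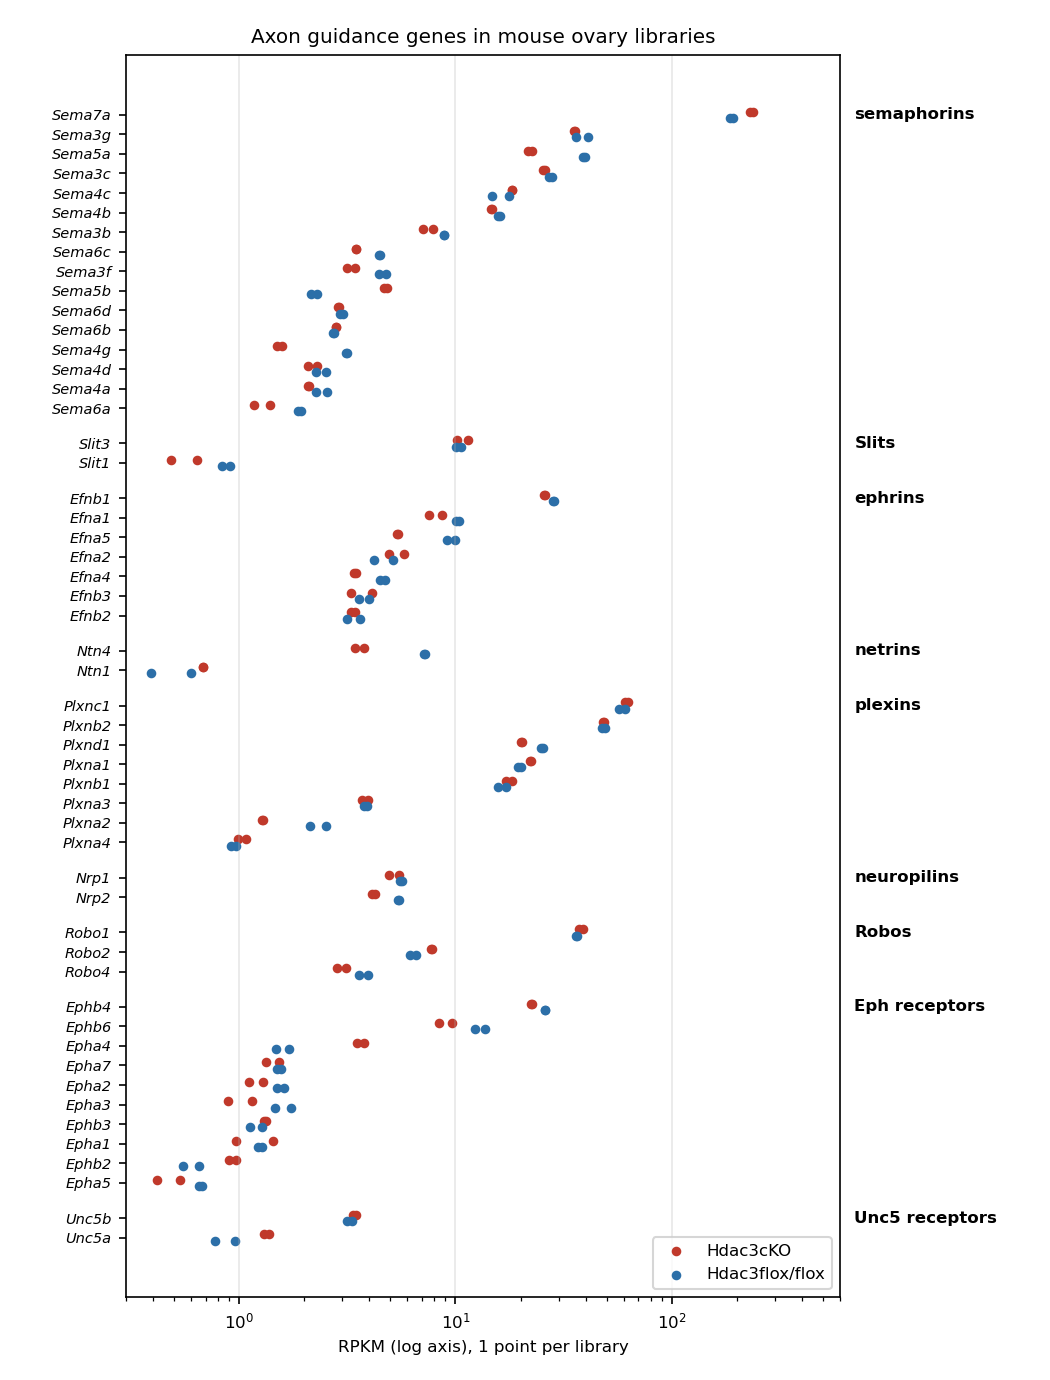
RPKM of the 52 tested members in each library, on a log axis and grouped by family, with Hdac3cKO and Hdac3flox/flox libraries as separate symbols. Sema7a stands highest with 230.3 and 238 RPKM in Hdac3cKO against 193 and 185 RPKM in Hdac3flox/flox, and the levels of the members span 0.571 to 212 RPKM as means of the 4 libraries.

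The 6 members with the smallest adjusted p were Sema5a, Sema5b, Ntn4, Efna5, Sema4g and Epha4, 4 of them lower and 2 higher in Hdac3cKO. To show the DNA next to the start sites of such genes, the 250 bases before the RefSeq start site are printed for 5 of the 6, leaving out Sema4g, whose window lies mostly in its own exon. The windows are from RefSeq on GRCm38.p6, at chr15:32244563-32244812 (plus strand) for Sema5a, chr16:35541112-35541361 (plus strand) for Sema5b, chr10:93640799-93641048 (plus strand) for Ntn4, chr17:62881318-62881567 (minus strand) for Efna5 and chr1:77515089-77515338 (minus strand) for Epha4. They are written 5′ to 3′ on the strand of the gene, and capitals mark the GC box GGGCGG on either strand, a motif bound by Sp family factors. In GENCODE M21 the Sema5a window overlaps an exon of Snhg18 and the Epha4 window an exon of Gm28386, both on the opposite strand, and the Sema5b window overlaps a transcript of Sema5b with a retained intron. The annotated Sema5b gene starts at 35541145, so that most of its window lies inside the gene. The Ntn4 window lies inside the annotated gene, in the first intron of a transcript that starts further upstream, and no exon of Ntn4 overlaps it.
Sema5a: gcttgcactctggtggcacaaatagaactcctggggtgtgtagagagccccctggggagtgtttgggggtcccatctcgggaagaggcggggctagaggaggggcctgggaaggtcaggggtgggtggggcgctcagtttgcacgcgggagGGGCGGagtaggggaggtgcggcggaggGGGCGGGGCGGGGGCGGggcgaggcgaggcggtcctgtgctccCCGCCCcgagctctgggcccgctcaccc
Sema5b: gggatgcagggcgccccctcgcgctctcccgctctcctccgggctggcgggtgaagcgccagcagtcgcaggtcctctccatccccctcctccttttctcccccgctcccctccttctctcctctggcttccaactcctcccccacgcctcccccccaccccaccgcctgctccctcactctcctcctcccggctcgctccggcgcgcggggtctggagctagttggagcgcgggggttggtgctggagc
Ntn4: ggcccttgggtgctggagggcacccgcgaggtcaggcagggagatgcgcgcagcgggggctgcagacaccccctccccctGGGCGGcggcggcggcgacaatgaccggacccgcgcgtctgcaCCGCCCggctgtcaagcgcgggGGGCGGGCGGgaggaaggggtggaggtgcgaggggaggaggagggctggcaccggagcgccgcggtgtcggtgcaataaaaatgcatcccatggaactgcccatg
Efna5: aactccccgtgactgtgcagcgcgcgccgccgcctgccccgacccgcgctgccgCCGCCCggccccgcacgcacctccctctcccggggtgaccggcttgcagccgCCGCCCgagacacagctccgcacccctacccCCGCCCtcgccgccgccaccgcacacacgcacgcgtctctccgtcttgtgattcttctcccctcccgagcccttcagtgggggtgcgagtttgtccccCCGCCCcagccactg
Epha4: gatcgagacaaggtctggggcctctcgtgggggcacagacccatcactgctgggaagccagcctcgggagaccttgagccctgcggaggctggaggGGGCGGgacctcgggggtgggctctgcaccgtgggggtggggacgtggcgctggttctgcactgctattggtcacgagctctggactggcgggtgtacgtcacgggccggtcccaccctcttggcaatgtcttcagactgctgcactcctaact

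GC boxes, counted with overlaps, numbered 5 before Sema5a, 4 each before Ntn4 and Efna5, 1 before Epha4 and 0 before Sema5b. A GC box was present in 44 of 59 windows of tested members (74.6%), which came from 44 genes, in 12 of 19 windows of the members that differed (16 genes), in 56.6% of the windows of all tested genes and in 32.7% of all 32851 windows. The Sema4g window, which is not printed and held 3 GC boxes, is counted among these 59 and 19. The forkhead motif GTAAACA, searched on either strand like those that follow, was in 0 of the 59 windows and in 2.17% of the windows of all tested genes. The GATA factor motif AGATAA was in 3 of the 59 windows and in 5.87% of those of all tested genes. The cAMP response element TGACGTCA was in 1 of the 59 windows and in 2.47% of those of all tested genes. These matches describe the letters of the windows and were not tested against expression.

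The semaphorins were the largest family, with 16 of 20 tested. Of these, 2 were higher (Sema7a and Sema5b), 4 were lower (Sema5a, Sema4g, Sema3f and Sema6c) and 10 did not pass, with a median log2 fold change of -0.12. Sema7a, the only semaphorin anchored to the membrane by a lipid tail, which binds plexin C1 and integrins, had the highest level of all members. It reached 230.3 and 238 RPKM in Hdac3cKO, against 193 and 185 RPKM in Hdac3flox/flox, that is 234 ± 5.22 RPKM in Hdac3cKO and 189 ± 5.40 RPKM in Hdac3flox/flox (SD, n = 2 each). Both Hdac3cKO libraries lay above both controls (log2 fold change 0.31 ± 0.0335 (SE), adjusted p = 0.0115). Its gene lies at chr9:57940112-57962865 on GRCm38, and it had 14014 and 13812 reads in Hdac3cKO and 11655 and 11216 in Hdac3flox/flox. The most abundant member was thus higher by a small margin and with a small error.

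The pair of class 5 semaphorins, transmembrane proteins with thrombospondin repeats outside the cell, moved in opposite directions. Sema5a (chr15:32244810-32696341) had 22.7 and 21.7 RPKM in Hdac3cKO, against 39.1 and 39.9 RPKM in Hdac3flox/flox. This was the smallest adjusted p of all members (log2 fold change -0.83 ± 0.0375 (SE), adjusted p = 0.00337), and the libraries of each genotype lay close together. The reads of the 2 genotypes, scaled by library totals, stood in a ratio of 0.563 (95% interval 0.548 to 0.578), an exact interval that covers counting error only and rests on the lowest read numbers the values allow. Sema5b (chr16:35541145-35664732) had 4.85 and 4.70 RPKM in Hdac3cKO, against 2.16 and 2.29 RPKM in Hdac3flox/flox. Both Hdac3cKO libraries were far above both controls (log2 fold change 1.07 ± 0.0773 (SE), adjusted p = 0.00650), with a read ratio of 2.15 (95% interval 1.94 to 2.37). The class 5 members summed to 27.5 and 26.4 RPKM in Hdac3cKO, against 41.2 and 42.2 RPKM in Hdac3flox/flox, since Sema5a was the more abundant. Leaving out 1 library in turn gave adjusted p of 0.0486 to 0.0833 for Sema5a and 0.0584 to 0.0864 for Sema5b.

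Sema4g, a transmembrane class 4 semaphorin (chr19:44989101-45003397), had 1.58 and 1.49 RPKM in Hdac3cKO, against 3.12 and 3.14 RPKM in Hdac3flox/flox. The genotypes were well apart (log2 fold change -0.98 ± 0.0946 (SE), adjusted p = 0.00939, read ratio 0.491 (95% interval 0.423 to 0.569)). Sema3f, a secreted class 3 semaphorin that repels through neuropilin 2, had 3.14 and 3.42 RPKM in Hdac3cKO, against 4.80 and 4.45 RPKM in Hdac3flox/flox (log2 fold change -0.48 ± 0.0839 (SE), adjusted p = 0.0281). Both Hdac3cKO libraries were below both controls. Sema6c, a transmembrane ligand of class A plexins, had 3.49 and 3.46 RPKM in Hdac3cKO, against 4.48 and 4.44 RPKM in Hdac3flox/flox (log2 fold change -0.35 ± 0.0643 (SE), adjusted p = 0.0311). Its libraries were nearly equal within each genotype and did not overlap between them. The 10 semaphorins that did not pass were Sema3b, Sema3c, Sema3g, Sema4a, Sema4b, Sema4c, Sema4d, Sema6a, Sema6b and Sema6d, with log2 fold changes of -0.54 to 0.18 and adjusted p of 0.0604 to 0.803. In at least 1 alternative with all 4 libraries the calls of Sema3f and Sema6c were lost (highest adjusted p over these alternatives 0.0727 and 0.0635), and leaving out 1 library gave adjusted p of 0.0669 to 0.147 for Sema7a, Sema4g, Sema3f and Sema6c.

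**Figure D2:**
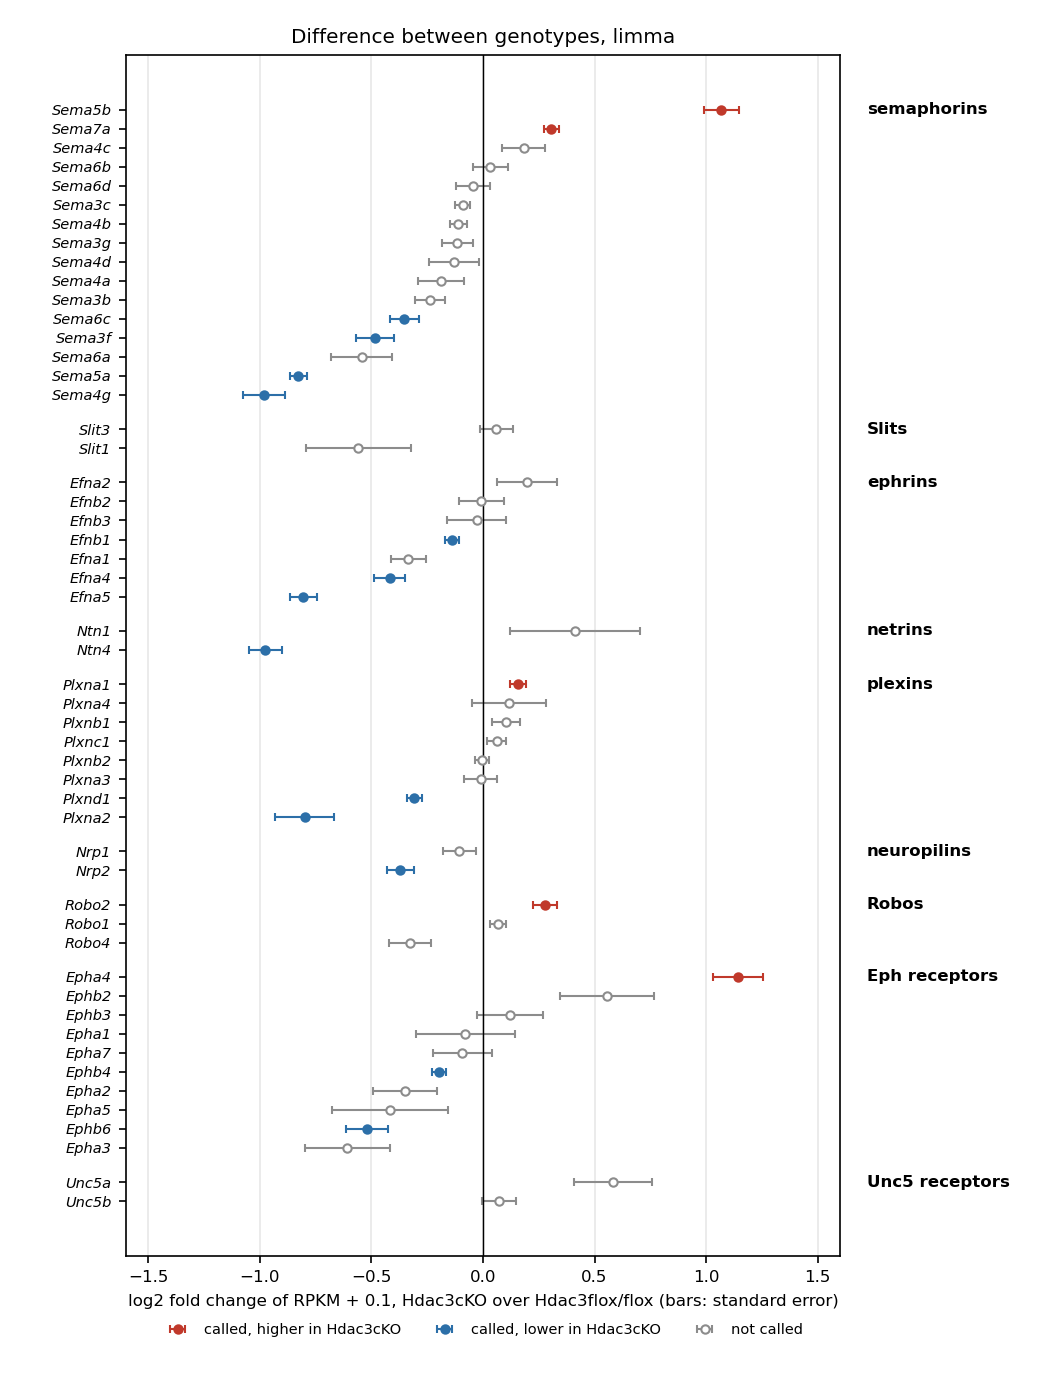
Log2 fold change of RPKM + 0.1, Hdac3cKO over Hdac3flox/flox, for each tested member by family, with the standard error as bars and filled symbols for members with an adjusted p under 0.05. The fold changes run between -0.98 for Sema4g and 1.14 for Epha4, and 13 of the 18 filled symbols lie left of 0.

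Among the plexins, the main semaphorin receptors, 1 was higher and 2 were lower of 8 tested, and the family's median log2 fold change was 0.03. Plxnc1, the receptor of Sema7a, led the family with 62.7 and 60.7 RPKM in Hdac3cKO, against 61.0 and 57.3 RPKM in Hdac3flox/flox. The genotypes overlapped (log2 fold change 0.06 ± 0.0423 (SE), adjusted p = 0.360). Plxna1, a partner of the neuropilins, had 22.0 and 22.3 RPKM in Hdac3cKO, against 19.5 and 20.2 RPKM in Hdac3flox/flox (log2 fold change 0.16 ± 0.0360 (SE), adjusted p = 0.0485). Both Hdac3cKO libraries were above both controls, by a small margin. Of its exon bases, 10.7% overlap those of Gm26811 on the opposite strand, which had at most 0.186 RPKM, and the sources used here do not say whether counting used strand.

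Plxnd1, a receptor known for its part in vessel patterning, had 20.1 and 20.4 RPKM in Hdac3cKO, against 25.4 and 24.8 RPKM in Hdac3flox/flox (log2 fold change -0.31 ± 0.0346 (SE), adjusted p = 0.0120). The libraries of the 2 genotypes stood clearly apart. Plxna2, a receptor of class 3 and class 6 semaphorins, had 1.28 and 1.28 RPKM in Hdac3cKO, against 2.12 and 2.51 RPKM in Hdac3flox/flox (log2 fold change -0.80 ± 0.132 (SE), adjusted p = 0.0260). The Hdac3cKO libraries were alike and the controls spread more widely, without overlap. A transcript of 1700047G07Rik matched Plxna2 over 241 bases at 96.3% identity, so that reads there are uncertain. The other plexins that did not pass were Plxna3, Plxna4, Plxnb1 and Plxnb2, the last among the highest members with 47.9 and 48.7 RPKM in Hdac3cKO, against 47.8 and 49.3 RPKM in Hdac3flox/flox, and the log2 fold changes of all 5 that did not pass were -0.01 to 0.12. At least 1 alternative with all 4 libraries lost the calls of Plxna1 and Plxna2 (highest adjusted p 0.0850 and 0.0710), and leaving out 1 library gave 0.0815 to 0.179 over the 3 called plexins.

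Both neuropilins, which bind class 3 semaphorins and vascular endothelial growth factors, were tested. Nrp1 had 4.94 and 5.47 RPKM in Hdac3cKO, against 5.65 and 5.55 RPKM in Hdac3flox/flox and did not pass (log2 fold change -0.11 ± 0.0730 (SE), adjusted p = 0.361). Its higher Hdac3cKO library lay just below the lower control. Nrp2, the neuropilin of Sema3f, had 4.11 and 4.25 RPKM in Hdac3cKO, against 5.40 and 5.48 RPKM in Hdac3flox/flox (log2 fold change -0.37 ± 0.0603 (SE), adjusted p = 0.0248). Both Hdac3cKO libraries lay below both controls, with an adjusted p of 0.109 to 0.136 when 1 library was left out and of at most 0.0548 over the alternatives with all 4 libraries.

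Of the Slits 0 of 2 and of the Robos 1 of 3 passed. Slit3, the most abundant Slit, had 10.2 and 11.4 RPKM in Hdac3cKO, against 10.1 and 10.6 RPKM in Hdac3flox/flox. The genotypes overlapped (log2 fold change 0.06 ± 0.0730 (SE), adjusted p = 0.603). Slit1, the other Slit tested, was at 0.485 to 0.904 RPKM and did not pass either. Robo1, the leading Slit receptor in these libraries, had 38.8 and 37.3 RPKM in Hdac3cKO, against 36.6 and 36.0 RPKM in Hdac3flox/flox (log2 fold change 0.07 ± 0.0344 (SE), adjusted p = 0.239). It did not pass, although the libraries did not overlap. Robo2, a Slit receptor also known from kidney development, had 7.77 and 7.74 RPKM in Hdac3cKO, against 6.56 and 6.20 RPKM in Hdac3flox/flox (log2 fold change 0.28 ± 0.0553 (SE), adjusted p = 0.0370). Both Hdac3cKO libraries were above both controls, but the call was lost in at least 1 alternative with all 4 libraries (highest adjusted p 0.0761) and whenever 1 library was left out (0.111 to 0.158). Robo4, known from endothelium, had 3.13 and 2.84 RPKM in Hdac3cKO, against 3.93 and 3.59 RPKM in Hdac3flox/flox and did not pass (log2 fold change -0.33 ± 0.0941 (SE), adjusted p = 0.0812).

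Of the ephrins, 0 were higher and 3 were lower of 7 tested, with a median log2 fold change of -0.14. The 7 ephrins summed to 55.9 and 54.6 RPKM in Hdac3cKO, against 65.4 and 64.0 RPKM in Hdac3flox/flox. Efnb1, a transmembrane ephrin, led the family with 26.0 and 25.7 RPKM in Hdac3cKO, against 28.7 and 28.2 RPKM in Hdac3flox/flox. The difference was small, without overlap, and close to the threshold (log2 fold change -0.14 ± 0.0319 (SE), adjusted p = 0.0498). Efnb1 passed in only 5 of 10 settings with all 4 libraries, the main one included (highest adjusted p by limma 0.204). With 1 library left out its log2 fold change was -0.15 to -0.13. Efna5, a lipid-anchored ephrin that binds most EphA receptors (chr17:62604184-62881317), had 5.39 and 5.45 RPKM in Hdac3cKO, against 9.18 and 9.91 RPKM in Hdac3flox/flox. The genotypes were far apart (log2 fold change -0.80 ± 0.0600 (SE), adjusted p = 0.00686), with a read ratio of 0.568 (95% interval 0.519 to 0.620). Efna4, of the same lipid-anchored class, had 3.46 and 3.41 RPKM in Hdac3cKO, against 4.75 and 4.50 RPKM in Hdac3flox/flox (log2 fold change -0.42 ± 0.0688 (SE), adjusted p = 0.0255). Both Hdac3cKO libraries lay below both controls, with 102 and 96 reads in Hdac3cKO and 139 and 132 in Hdac3flox/flox, and the highest adjusted p over the alternatives with all 4 libraries was 0.0592. Efna1, Efna2, Efnb2 and Efnb3 did not pass, with log2 fold changes of -0.33 to 0.20. Without any 1 library the adjusted p of the 3 called ephrins was 0.0528 to 0.184. Of the exon bases of Efna4, 10.5% overlap 4731419I09Rik on the opposite strand, which had at most 0.0961 RPKM.

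Of the Eph receptors, 1 was higher and 2 were lower of 10 tested, and 7 did not pass. Epha4, which binds ephrins of both classes (chr1:77367185-77515088), had 3.77 and 3.49 RPKM in Hdac3cKO, against 1.70 and 1.48 RPKM in Hdac3flox/flox. Both Hdac3cKO libraries stood well above both controls, and the log2 fold change was the highest of any member (1.14 ± 0.112 (SE), adjusted p = 0.00952), with a read ratio of 2.28 (95% interval 2.05 to 2.55). The 5 other EphA receptors tested did not pass and had log2 fold changes of -0.61 to -0.08. Ephb4, the receptor of ephrin-B2 on venous endothelium, led the family with 22.7 and 22.4 RPKM in Hdac3cKO, against 25.8 and 26.0 RPKM in Hdac3flox/flox. Its difference was small beside a small spread (log2 fold change -0.20 ± 0.0317 (SE), adjusted p = 0.0241). Ephb6, a receptor without kinase activity, had 9.70 and 8.42 RPKM in Hdac3cKO, against 12.3 and 13.7 RPKM in Hdac3flox/flox (log2 fold change -0.52 ± 0.0924 (SE), adjusted p = 0.0295). Both Hdac3cKO libraries were below both controls, with more spread within each genotype. The calls of Ephb4 and Ephb6 were lost in at least 1 alternative with all 4 libraries (highest adjusted p 0.0537 and 0.0892), and without any 1 library the 3 called Eph receptors had 0.0632 to 0.140. The receptors that did not pass were Epha1, Epha2, Epha3, Epha5, Epha7, Ephb2 and Ephb3, with at most 1.74 RPKM in any library (Epha3).

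Ntn4, a netrin of basement membranes that binds laminin (chr10:93640681-93747207), was the main netrin and had 3.80 and 3.44 RPKM in Hdac3cKO, against 7.24 and 7.17 RPKM in Hdac3flox/flox. The genotypes were far apart (log2 fold change -0.98 ± 0.0723 (SE), adjusted p = 0.00680), with a read ratio of 0.503 (95% interval 0.450 to 0.561) and an adjusted p of 0.0656 to 0.0833 when 1 library was left out. Ntn1, the classical attractant of commissural axons, was low at 0.392 to 0.682 RPKM and did not pass (log2 fold change 0.41 ± 0.290 (SE), adjusted p = 0.372). The Unc5 receptors, through which netrins repel, also did not pass. Unc5b, the more abundant, had 3.37 and 3.46 RPKM in Hdac3cKO, against 3.16 and 3.33 RPKM in Hdac3flox/flox (log2 fold change 0.07 ± 0.0754 (SE), adjusted p = 0.549). Unc5a had 1.30 and 1.38 RPKM in Hdac3cKO, against 0.773 and 0.955 RPKM in Hdac3flox/flox (log2 fold change 0.58 ± 0.177 (SE), adjusted p = 0.0891). For both receptors the Hdac3cKO libraries lay above both controls.

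**Figure D3:**
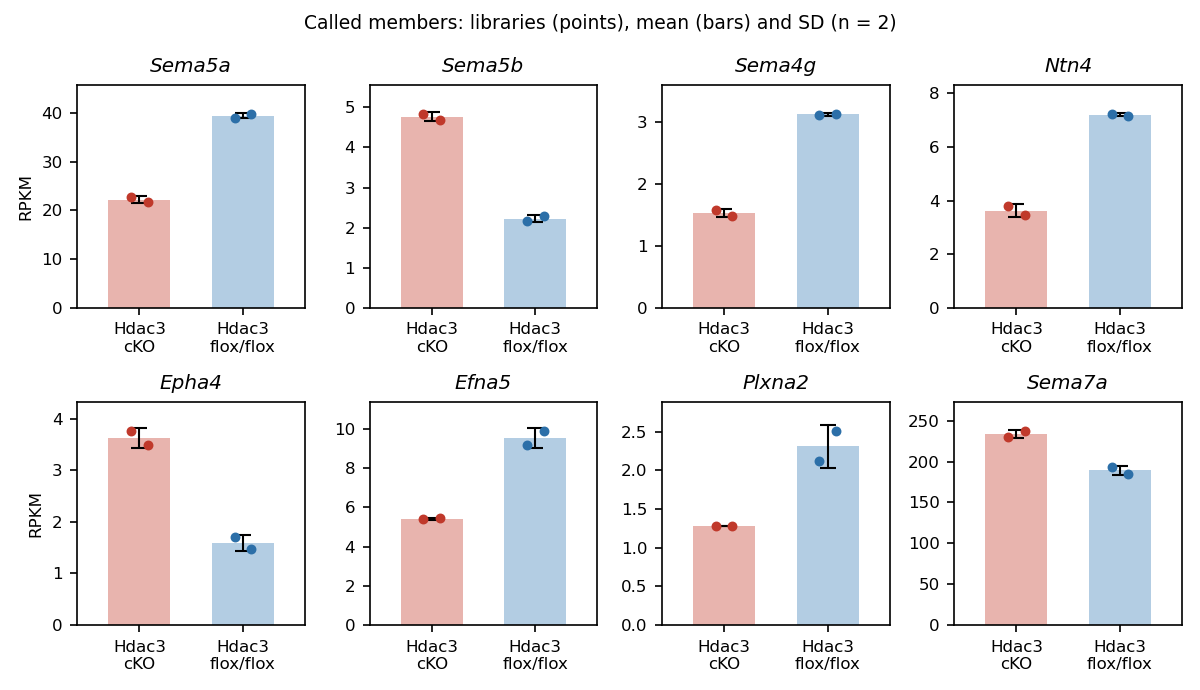
RPKM in each library for the 6 members with the smallest adjusted p and for Plxna2 and Sema7a, which also passed. Each gene has its own axis from 0, with the 2 Hdac3cKO libraries left of the 2 Hdac3flox/flox libraries. Points are libraries, bars their means and error bars the SD (n = 2). Sema5a, Ntn4, Efna5, Sema4g and Plxna2 are lower and Sema5b, Epha4 and Sema7a are higher in both Hdac3cKO libraries.

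The 17 members below the filter were Sema3a, Sema3d, Sema3e, Sema4f, Slit2, Efna3, Ntn5, Plxnb3, Robo3, Epha6, Epha8, Epha10, Ephb1, Unc5c, Unc5d, Plxna4os1 and Plxna4os2. Their mean RPKM was 0.00694 to 0.386, and 8 of them had fewer than 10 reads in every library. Sema3e, a ligand of Plxnd1, and Plxnb3, a receptor of Sema5a, were thus among the low genes. The reads of the 52 tested members ran between 45 and 14014 per library.

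Other genes of these pathways were followed with lists of 18 co-receptors and further guidance molecules and of 62 intracellular effectors, of which 8 and 57 passed the filter. Of the 8, 2 were higher and 2 were lower, beside 7.68% and 11.0% of all genes tested, with a median log2 fold change of -0.0020. Cntn2, an adhesion molecule of axons, had 2.59 and 2.54 RPKM in Hdac3cKO, against 1.03 and 1.11 RPKM in Hdac3flox/flox (log2 fold change 1.19 ± 0.114 (SE), adjusted p = 0.00935). Rgma, a repulsive ligand of neogenin and co-receptor of bone morphogenetic proteins, had 2.59 and 2.61 RPKM in Hdac3cKO, against 4.43 and 4.82 RPKM in Hdac3flox/flox (log2 fold change -0.81 ± 0.0792 (SE), adjusted p = 0.00962). Both genes stood clear of overlap, in opposite directions. Rgmb, of the same family, was lower as well (-0.47, adjusted p = 0.0212), and Flrt3, which binds Unc5 receptors, was higher (0.61, adjusted p = 0.0467). Neo1, which encodes neogenin, had 21.4 and 22.2 RPKM in Hdac3cKO, against 24.5 and 23.7 RPKM in Hdac3flox/flox and did not pass (log2 fold change -0.15 ± 0.0395 (SE), adjusted p = 0.0694). Flrt1 did not pass (0.49, adjusted p = 0.252). The netrin receptor gene Dcc was below the filter, at 0 to 0.0271 RPKM.

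Of the 57 effectors, 3 were higher and 8 lower in Hdac3cKO while 46 did not pass, with a median log2 fold change of -0.02. Over both lists 15 of 65 genes passed, or 23.1%, with 5 higher and 10 lower, against 18.7% of all genes tested. That split was 8 higher and 9 lower with median-of-ratios size factors and 9 higher and 9 lower once effects of GC content and length were taken out of each library. Arhgef28, a guanine nucleotide exchange factor, had 15.7 and 15.4 RPKM in Hdac3cKO, against 23.5 and 24.6 RPKM in Hdac3flox/flox (log2 fold change -0.62 ± 0.0402 (SE), adjusted p = 0.00545). Dpysl3, a collapsin response mediator that binds the cytoskeleton, had 25.8 and 25.0 RPKM in Hdac3cKO, against 36.6 and 39.3 RPKM in Hdac3flox/flox (log2 fold change -0.58 ± 0.0470 (SE), adjusted p = 0.00777). Neither gene overlapped between the genotypes. Rnd2, a small GTPase, was lower (-0.26, adjusted p = 0.0164), as were Trio, an exchange factor for Rac (-0.38, adjusted p = 0.0193), and Ablim1, an actin-binding protein (-0.41, adjusted p = 0.0258). Tiam1, another Rac exchange factor, was higher (0.56, adjusted p = 0.0261). With any 1 library left out 0 genes of both lists passed by limma, and 16 to 22 had an unadjusted p under 0.05.

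**Figure D4:**
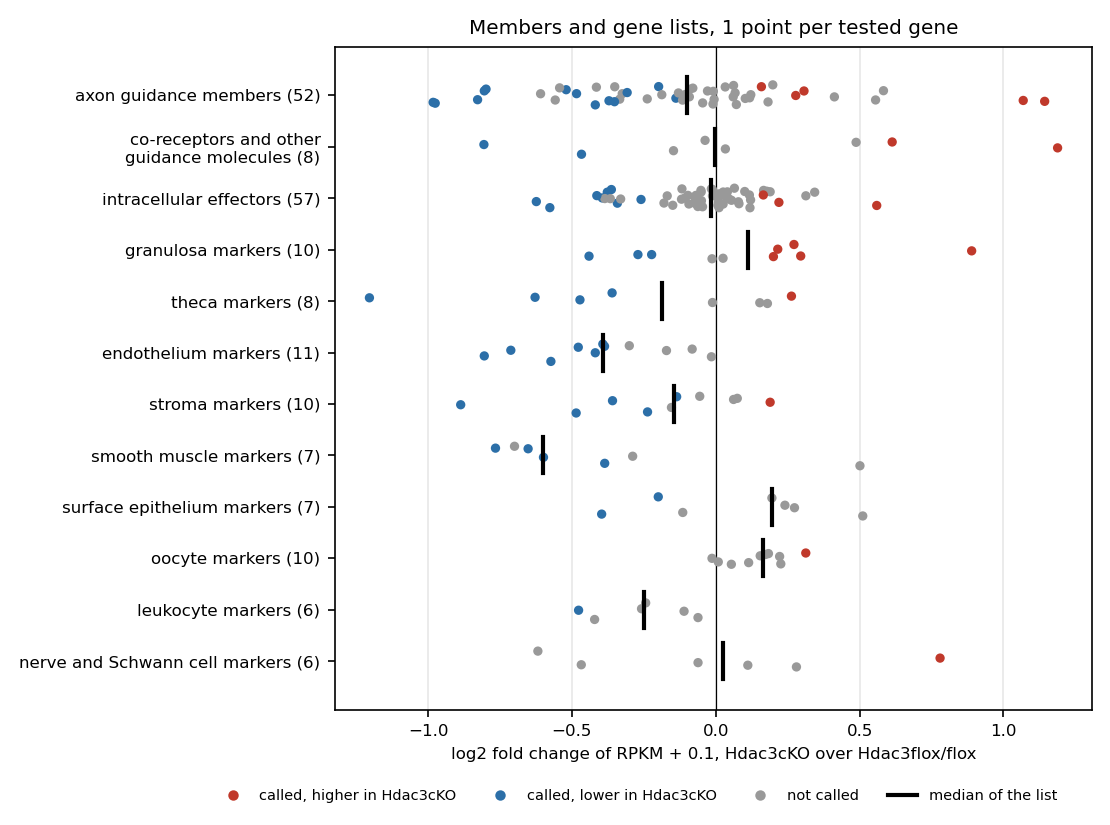
Log2 fold change of RPKM + 0.1, Hdac3cKO over Hdac3flox/flox, with 1 point per tested gene for the axon guidance members, the 2 pathway lists and 9 lists of cell type markers. Vertical bars are the medians, at -0.10 for the members, -0.39 for endothelium and -0.60 for smooth muscle.

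Several members are known from cells other than GCs, and the levels of cell type markers were read beside them. Of 12 endothelium markers 11 were tested, 0 were higher and 7 were lower (Cldn5, Cdh5, Tie1, Tek, Pecam1, Egfl7 and Esam), and 4 (Kdr, Flt1, Emcn and Ptprb) did not pass. Of all genes tested 7.68% were higher and 11.0% were lower, against which this count and those of the lists that follow are to be read. Their summed level was 87.4 and 87.9 RPKM in Hdac3cKO, against 120.3 and 118 RPKM in Hdac3flox/flox, with a median log2 fold change of -0.39 and only Vwf below the filter. These markers were lower together with the vascular members Plxnd1, Ephb4 and Nrp2, and their part in these differences was not tested. Other members known from vessels did not pass, namely Nrp1, Robo4, Efnb2 and Unc5b, with log2 fold changes of -0.11, -0.33, -0.0085 and 0.07. Smooth muscle markers were lower in 4 of 7 tested, with 343 and 408 RPKM in Hdac3cKO, against 509.9 and 502 RPKM in Hdac3flox/flox summed, and stroma markers were lower in 5 and higher in 1 of 10, with 669 and 681 RPKM in Hdac3cKO, against 717 and 712 RPKM in Hdac3flox/flox summed. Theca markers were lower in 4 and higher in 1 of 8, with 1067 and 969 RPKM in Hdac3cKO, against 1238 and 1136 RPKM in Hdac3flox/flox summed. For 5 of 10 granulosa cell markers the level was higher and for 3 it was lower. The part of these lists in the members' differences was not tested. Of the oocyte markers 1 of 10 was higher and 0 were lower. Surface epithelium markers were higher in 0 and lower in 2 of 7, although their median log2 fold change was positive at 0.19. That list summed to 34.5 and 47.0 RPKM in Hdac3cKO, against 35.9 and 42.8 RPKM in Hdac3flox/flox. Leukocyte markers were higher in 0 and lower in 1 of 6, with 26.8 and 28.7 RPKM in Hdac3cKO, against 36.2 and 32.5 RPKM in Hdac3flox/flox summed.

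Of the markers of nerve and Schwann cells, for which axon guidance genes are best known, 6 of 10 were tested and 1 passed. This was Tubb3, a tubulin of neurons, with 15.8 and 15.9 RPKM in Hdac3cKO, against 9.18 and 9.22 RPKM in Hdac3flox/flox (log2 fold change 0.78 ± 0.0388 (SE), adjusted p = 0.00380). Both Hdac3cKO libraries were well above both controls. Sox10, Prph and Dbh, which mark Schwann cells and peripheral or adrenergic neurons, were among those below the filter. The summed level of the list was 41.3 and 40.3 RPKM in Hdac3cKO, against 34.0 and 33.5 RPKM in Hdac3flox/flox. Most of that difference was Tubb3, and the median log2 fold change of the tested markers of this list was 0.025. The part of this list in the members' differences was not tested. No marker of any list was at 0 in every library.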

How the data were processed

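RNA of 2 Hdac3cKO and 2 Hdac3flox/flox mice was sequenced from Illumina TruSeq libraries. The authors deposited RPKM values per gene symbol. Bowtie 0.12.2 and mm8 stand in the submitters' processing notes, yet 91.0% of the 26767 rows matched by symbol to 1 gene of GENCODE M21 gave whole reads with its exon length on GRCm38, so positions are on GRCm38. The sources used here do not give the counting tool, the annotation or the use of strand. Members and gene lists were chosen with earlier results of these data known. Whether the 2 mice per genotype were litter mates is not given.

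Whole reads were recovered from the RPKM values (relative tolerance 1e-06, library totals of 17621129 to 18452073), for 59 of 69 members from the annotated length and otherwise as the smallest whole numbers, a lower limit (Sema5a, Sema4g and Robo2 among the members that passed), and 99.99% of all values came out whole. Read ratios have exact 95% intervals (Clopper-Pearson). These cover counting error only, as PCR copies are not independent molecules. The main test was limma 3.58.1 (R 4.3.3) on log2(RPKM + 0.1), with an intensity trend and genotype alone in the model, which left 2 residual degrees of freedom. It kept the 15528 genes that reached 0.5 RPKM in 2 libraries or more, and a gene passed at a two-sided Benjamini-Hochberg adjusted p under 0.05 over these genes.

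Full values are given for members that passed and for the most abundant member of each family, and up to 6 genes of other lists with the smallest p are named. Robo4, Unc5a, Ntn1, Plxnb2 and Slit1 and the markers beyond 6 of a list were named after their values were seen. Alternatives changed the pseudocount (1 or 0.01), the filter (none, or 1 RPKM in all 4 libraries), the scaling (median-of-ratios size factors), the test (limma voom on recovered reads, with 10 or more in all 4 libraries) or the moderation (robust), added the replicate number as a block, or dropped 1 library. A correction for GC content and length (splines) was added after the data were seen. Near-identical transcripts were searched with BLAST 2.17.0. Tables were handled with Python 3.11.15, pandas 2.3.3, numpy 2.4.6 and scipy 1.17.1, and plots drawn with matplotlib 3.10.9. Promoter windows came from RefSeq (GRCm38.p6).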

Additional observations from a re-analysis of the deposited data

How the results depend on the processing

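The number of members that passed was 18 in the main analysis and 18 with a pseudocount of 1, with a pseudocount of 0.01 and with robust moderation. A filter of 1 RPKM in all 4 libraries gave 20, median-of-ratios size factors gave 17, and a correction for GC content and length, which was chosen after seeing the data, gave 16. Without a filter 8 members, 5 pathway genes and 954 of all genes passed, and with limma voom on recovered reads 29, 26 and 4818 did. The cause of these shifts was not tested. Of the 2904 genes that passed, 1193 were higher and 1711 lower in Hdac3cKO, against 1526 higher and 1382 lower with size factors and 1953 higher and 1196 lower after that correction. Size factors moved the median log2 fold change of all genes to 0.00018, against -0.036 without them. Over the 23 named members and the alternatives with all 4 libraries, 187 of 207 values stayed on their side of the threshold, 20 no longer passed and 0 reversed. Of the 18 members that passed, 8 passed in each of these alternatives. The 23 include Robo1, Slit3, Unc5b, Nrp1 and Plxnc1, which passed neither in the main analysis nor in these alternatives. Changing the filter, the moderation or the block left the log2 fold changes as they were, so no value could reverse there.

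With each library left out in turn, 0 to 1 members, 0 to 0 pathway genes and 0 to 98 of all genes (98 without Hdac3flox/flox replicate 1) passed by limma. At an unadjusted p under 0.05, 22 members passed without Hdac3cKO replicate 1, 21 without Hdac3cKO replicate 2, 19 without Hdac3flox/flox replicate 1 and 22 without Hdac3flox/flox replicate 2, with 16 to 22 pathway genes and 4075 to 4357 of all genes over the 4 fits. The log2 fold change of Slit3 reversed to -0.021 without Hdac3cKO replicate 2 and was at most 0.14 without another library, and its main value of 0.060 did not pass. In these fits the lone library of a genotype was assumed to vary like the other genotype.

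The replicate numbers are not said to pair the mice, and the deviations of same-numbered libraries correlated at 0.076 across genes. With the replicate number as a block, 12 members, 12 pathway genes and 2143 of all genes passed. The 2 libraries per genotype limit every statement on single genes, and members under 2 RPKM limit the smallest difference that could be seen.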
